A study of Homo sapiens with 12 samples.

Results

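A small group of genes was close to silent in one arm of the MEC1 comparison and plainly transcribed in the other. The genes were chosen by the raw counts of the 6 MEC1 libraries, taking those that reached no more than 40 counts in any library of one arm and no fewer than 200 in any library of the other. Of the 22441 genes in the MEC1 table, 9 met these limits (0.0401%). *HMGA2* and *IL12RB2* were left out by the rule, together with *SLFN11*, which did not reach 200 counts, and the remaining 7 genes are described here. The arm with the high counts is called the on arm and the other the off arm. There were 4 genes on in MEC1-2B17, namely *TRAT1*, *CTNND2*, *EMR1* (current symbol *ADGRE1*) and *KLRC1*, and 3 on in MEC1-CTRL, namely *SHROOM3*, *RORB* and *CASK*. Since the MEC1 counts chose the genes, their difference between the MEC1 arms is a description and was not tested.

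Total RNA from 12 libraries of MEC1 and JVM2, both established human lines of neoplastic B cells, was depleted of ribosomal RNA and sequenced. Each of 4 populations had 3 replicates. MEC1-2B17 and JVM2-2B17 cells carried the coding sequence of UGT2B17, an enzyme that couples glucuronic acid to steroids and other lipids, in the pcDNA6 vector, and were selected in blasticidin. JVM2-CTRL cells carried that vector without an insert and were also selected in blasticidin. MEC1-CTRL cells carried an shRNA that represses *UGT2B17* and were selected in puromycin, so in MEC1 the insert, the construct and the antibiotic changed together and cannot be told apart. Whether any population came from a single clone is not given in the sources used here. The authors call the replicates biological, but nothing states that their cultures or populations were made separately, so *P*-values measure the spread between these libraries only.

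The targeted gene followed the labels in both lines. *UGT2B17* had 447, 371 and 346 counts in MEC1-CTRL and 766, 673 and 637 in the 2B17 cells, which differed by 0.94 on the log2 scale (SE 0.069, edgeR adjusted *P* = 2e-09). In JVM2 it had 299, 281 and 258 counts in the controls and 389, 402 and 315 in JVM2-2B17, a difference of 0.48 on the log2 scale (SE 0.11, edgeR adjusted *P* = 0.0048). Library totals ran from 31762649 to 37744991 counts in MEC1 and from 8809179 to 11231330 in JVM2, so a given level rests on fewer counts in JVM2. The B-cell transcription factor gene *PAX5* was present in every population, at mean CPM (counts scaled to the effective library size) of 350 in MEC1-CTRL, 310 in MEC1-2B17, 235 in JVM2-CTRL and 215 in JVM2-2B17.

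Cells keep genes of other lineages silent with DNA methylation, with Polycomb complexes that modify histone H3 and H2A, and with methylation of histone H3 at lysine 9. In B cells such genes include receptors and adaptors of T and NK cells and many genes of neurons and epithelia.

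The 7 genes differed in the DNA just before their start sites, and 4 of these stretches are shown because they hold a CpG-poor and a CpG-rich one in each direction. They are the 250 bases upstream of a start in RefSeq on GRCh38.p14, printed 5′ to 3′ on the gene's strand, with each CpG dinucleotide in capitals. There were 3 such stretches listed for *KLRC1* and 2 each for *CTNND2* and *RORB*, of which a single one was used. Which start MEC1 cells use was not tested. The RefSeq starts of *TRAT1* and *EMR1* lie a few bases inside the GENCODE ones given further on. For *TRAT1* the stretch is chr3:108822536-108822785 on the plus strand, and for *CTNND2* it is chr5:11904447-11904696 on the minus strand. For *SHROOM3* it is chr4:76434979-76435228 on the plus strand, and for *CASK* it is chrX:41923555-41923804 on the minus strand.
TRAT1: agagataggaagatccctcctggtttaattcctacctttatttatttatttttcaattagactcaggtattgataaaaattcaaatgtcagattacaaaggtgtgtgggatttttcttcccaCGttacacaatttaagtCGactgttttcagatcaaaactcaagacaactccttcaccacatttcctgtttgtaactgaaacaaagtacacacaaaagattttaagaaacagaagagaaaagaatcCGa
CTNND2: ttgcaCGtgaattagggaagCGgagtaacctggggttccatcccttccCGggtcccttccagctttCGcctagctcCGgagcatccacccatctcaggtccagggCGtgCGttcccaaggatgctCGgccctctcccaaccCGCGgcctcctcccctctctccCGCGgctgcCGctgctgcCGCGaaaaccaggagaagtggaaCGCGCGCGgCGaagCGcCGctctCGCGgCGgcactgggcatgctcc
SHROOM3: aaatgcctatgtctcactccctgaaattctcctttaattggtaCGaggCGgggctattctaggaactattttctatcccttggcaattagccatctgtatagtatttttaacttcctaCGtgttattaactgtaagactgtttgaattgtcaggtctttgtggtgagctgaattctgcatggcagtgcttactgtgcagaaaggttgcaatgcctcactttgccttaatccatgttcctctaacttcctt
CASK: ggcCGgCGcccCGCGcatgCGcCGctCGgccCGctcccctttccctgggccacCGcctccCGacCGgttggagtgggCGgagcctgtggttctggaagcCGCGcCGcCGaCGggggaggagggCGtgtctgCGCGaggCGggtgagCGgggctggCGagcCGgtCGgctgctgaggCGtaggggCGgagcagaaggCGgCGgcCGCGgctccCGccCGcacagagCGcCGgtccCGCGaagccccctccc

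Both directions held CpG-poor and CpG-rich stretches, and whether CpG content goes with direction was not tested. Of the genes on in MEC1-2B17, *TRAT1* and *EMR1* had 3 CpG each and *KLRC1* had 1, while *CTNND2* had 25. Of those on in MEC1-CTRL, *SHROOM3* had 3 CpG, *RORB* 23 and *CASK* 37. For scale, the median was 21 CpG and the quartiles 13 and 28 over the 10940 promoters that could be matched to genes tested in MEC1, and 10.9% of them had at most 5 CpG, against 4 of the 7 genes. With so few genes these counts are a description.

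**Figure D1:**
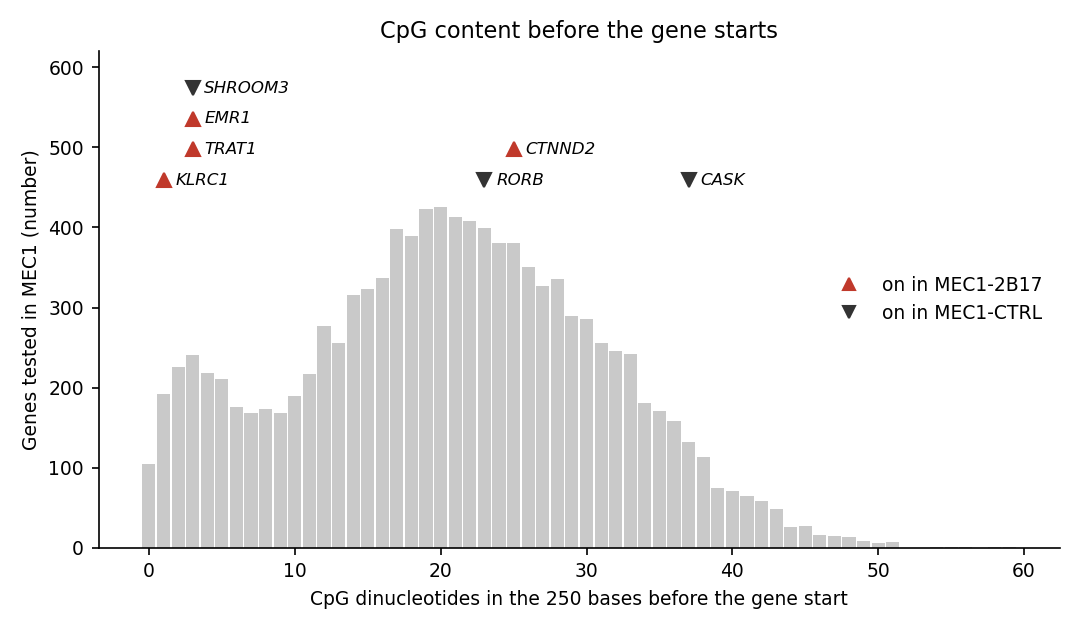
Bars give the number of genes tested in MEC1 (vertical axis) by the number of CpG dinucleotides in the 250 bases before the start (horizontal axis), and triangles mark the 7 genes by the arm in which they were on. *KLRC1*, *TRAT1*, *EMR1* and *SHROOM3* sit at 1 to 3 CpG, and *RORB*, *CTNND2* and *CASK* at 23 to 37.

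Short promoter elements were counted in the same stretches. On either strand the TATA box (TATAAA) was in 0 of 7, against 5.76% of the 10940 promoters, and the octamer (ATTTGCAT) bound by OCT factors of B cells was in 0 of 7, against 1.45%. A CCAAT box (CCAAT) was present before *KLRC1*, *RORB* and *SHROOM3*, and 35.6% of the promoters held one. A GC box (GGGCGG) was present before *RORB* and *CASK*, and 65.6% held one. No motif contains another on either strand, and a match or its absence says only whether the letters occur in the window.

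The genes on in MEC1-2B17 that are best known in lymphocytes are *TRAT1* and *KLRC1*. *TRAT1* encodes a transmembrane adaptor that associates with the T-cell receptor complex, and it lies on chr3:108822770-108855005, plus strand (GRCh38, GENCODE). Its counts were 2, 0 and 1 in MEC1-CTRL and 283, 258 and 243 in MEC1-2B17, so that the off arm was at the level of single reads. Means were 0.0276 ± 0.0264 and 7.98 ± 0.365 CPM (SD, n = 3), and the summed counts stood in a depth-corrected ratio of 281 (95% counting interval 95.9 to 1370). It was the nearest of the 7 to a complete absence of reads.

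*KLRC1* encodes NKG2A, the inhibitory receptor of NK cells that pairs with CD94 and reads HLA-E, and lies on chr12:10442264-10454685, minus strand. It had 33, 19 and 25 counts in MEC1-CTRL and 254, 236 and 208 in MEC1-2B17. Means were 0.724 ± 0.16 and 7.10 ± 0.493 CPM (SD, n = 3), a ratio of 9.76 (7.7 to 12.5). The limits that chose the genes fix a gap between the arms for each of them. *KLRC2*, a close paralog that overlaps it in the annotation on the same strand, had 22 and 43 summed counts in the 2 arms, and reads shared between the pair could have been split or lost in counting.

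*EMR1* encodes an adhesion G protein-coupled receptor whose mouse ortholog is a classical macrophage marker, and lies on chr19:6887566-6940459, plus strand. Its counts were 20, 31 and 25 in MEC1-CTRL and 290, 232 and 264 in MEC1-2B17, apart by the way it was chosen. Means were 0.726 ± 0.189 and 8.0 ± 0.791 CPM (SD, n = 3), a ratio of 11.1 (8.79 to 14.3). *CTNND2* encodes delta-catenin, an armadillo protein of cell junctions best known from neurons, and spans chr5:10971836-11904446 on the minus strand. It had 15, 16 and 9 counts in MEC1-CTRL and 298, 308 and 289 in MEC1-2B17, a ratio of 24.1 (17.6 to 34.0) with means of 0.377 ± 0.098 and 9.12 ± 0.304 CPM (SD, n = 3). Both genes thus kept a low but countable signal in the off arm.

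The genes on in MEC1-CTRL are known mainly outside lymphocytes. *SHROOM3* encodes an actin-binding protein that shapes epithelial sheets, and lies on chr4:76435229-76783253, plus strand. It had 402, 337 and 347 counts in MEC1-CTRL and 8, 16 and 24 in MEC1-2B17. Means were 10.3 ± 0.421 and 0.494 ± 0.26 CPM (SD, n = 3), and the ratio of on to off was 21.0 (15.7 to 28.7).

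*RORB* encodes a nuclear receptor of retina and brain and lies on chr9:74497335-74693177, plus strand. Counts were 355, 338 and 269 in MEC1-CTRL and 29, 25 and 25 in MEC1-2B17, with means of 9.08 ± 0.885 and 0.804 ± 0.0485 CPM (SD, n = 3) and a ratio of 11.3 (8.98 to 14.4). The off libraries were alike, within the counting interval of each other. *CASK* encodes a scaffold of the membrane-associated guanylate kinase family, best known at synapses, and spans chrX:41514934-41923554 on the minus strand. It had 345, 297 and 287 counts in MEC1-CTRL and 36, 10 and 28 in MEC1-2B17, a ratio of 11.7 (9.2 to 15) with means of 8.78 ± 0.252 and 0.751 ± 0.396 CPM (SD, n = 3). Its off libraries spread beyond counting error, since the Poisson 95% intervals of 36 counts (25.2 to 49.8) and of 10 counts (4.8 to 18.4) did not meet. Without MEC1-2B17 replicate 2, the library with 10 counts, the fitted log2 fold change was -3.16 in place of -3.54.

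**Figure D2:**
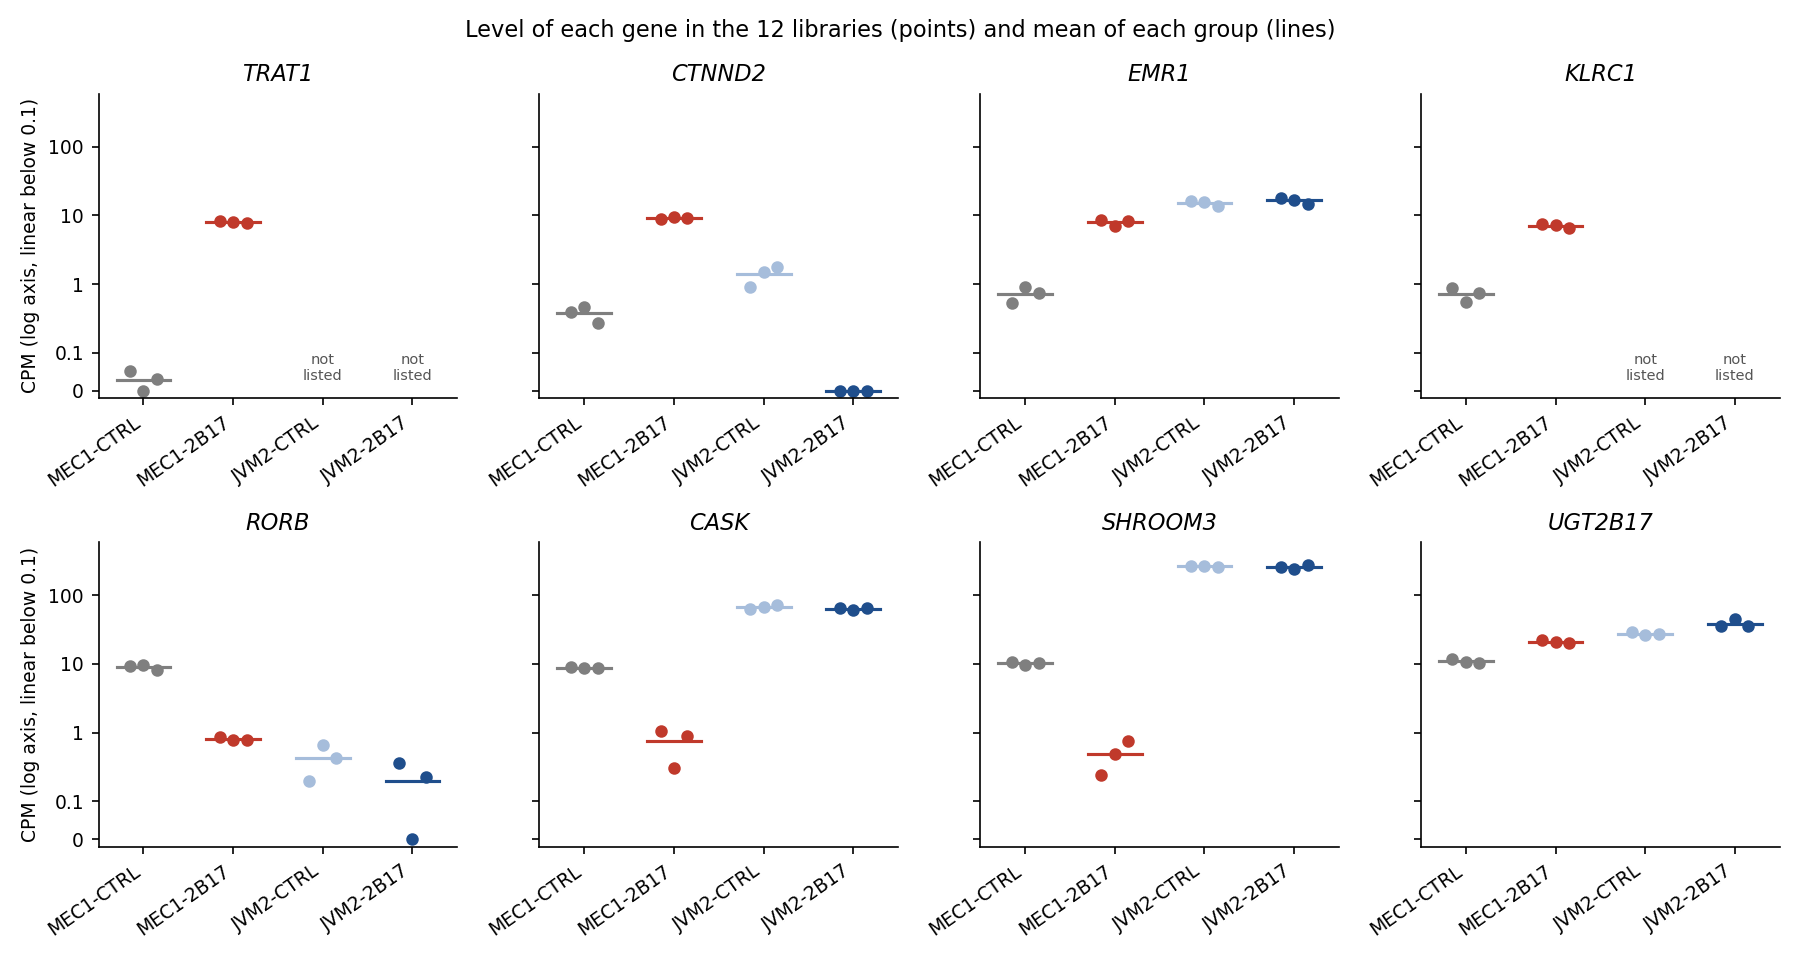
Each panel gives 1 gene, with CPM on a log axis (linear below 0.1) for the 3 libraries of each population (points) and their mean (line). In MEC1 the on and off libraries do not overlap for any of the 7 genes, by the way they were chosen, whereas in JVM2 *EMR1*, *CASK* and *SHROOM3* are high in both arms, *RORB* is near 0 in both, and *CTNND2* has reads in the control libraries only.

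In the on arm the 7 genes were weakly to moderately transcribed. Their mean CPM lay between the 39.9th and the 43.7th percentile of the 16581 genes tested in MEC1, and the on libraries of a gene varied little, with coefficients of variation from 2.87% for *CASK* to 9.88% for *EMR1*. Per kilobase of annotated exon, the on level was highest for *TRAT1* at 3.25 CPM per kb, then *KLRC1* at 2.60, *EMR1* at 2.16 and *CTNND2* at 1.25. It was lower for *RORB* at 0.944, *SHROOM3* at 0.742 and *CASK* at 0.443, and the library ranges of neighbours in this order did not overlap. The exon lengths are unions over all annotated transcripts, so a gene read from a short transcript is placed too low.

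The limits used to choose the genes are round numbers within a continuum. Just inside them were *KLRC1*, with at most 33 counts off and at least 208 on, *EMR1* with 31 and 232, and *CASK* with 36 and 287. Just outside were *SCN3A* with 36 and 192, *RASSF6* with 28 and 183 and *ATRNL1* with 44 and 230, all on in MEC1-CTRL. Genes on in MEC1-2B17 also lay close, such as *VWDE* with 47 and 278 and *NUDT12* with 37 and 168, both named after their values were seen. At most 80 and at least 100 counts gave 132 genes, of which 21 were on in MEC1-2B17 and 111 in MEC1-CTRL, whereas at most 20 and at least 400 gave 0. The near balance of 4 and 3 therefore holds for the limits of 40 and 200 and not for the wider ones.

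**Figure D3:**
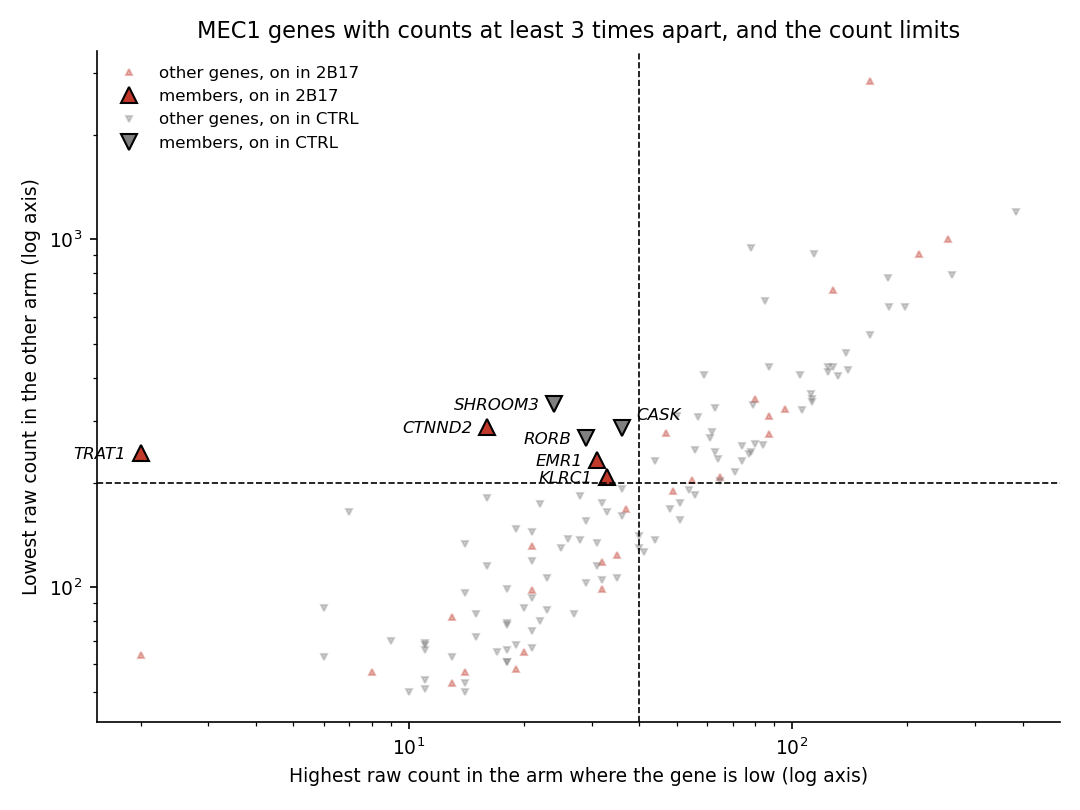
Each triangle is a MEC1 gene whose lowest count in one arm (vertical log axis) was at least 3 times its highest count in the other arm (horizontal log axis), and broken lines mark 40 and 200 counts. The 7 named genes fill the upper left, with *TRAT1* far to the left at 2 counts and *KLRC1*, *EMR1* and *CASK* close to the limits.

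In JVM2 the same 7 genes split into 3 kinds, and 0 of the 3 that passed the filter on low counts were called changed (edgeR adjusted *P* below 0.05), against 29.3% of the 13021 genes tested (14.1% higher and 15.3% lower in JVM2-2B17). At an unadjusted *P* below 0.05 the number was also 0 of 3, and DESeq2 called 0. Fold changes in JVM2 played no part in choosing the genes. *SHROOM3*, *CASK* and *EMR1* formed the first kind, transcribed in all 6 libraries.

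*SHROOM3* had 2669, 2854 and 2482 counts in JVM2-CTRL and 2881, 2180 and 2452 in JVM2-2B17. The arms overlapped at 265 ± 1.55 and 261 ± 16.0 CPM (SD, n = 3), and the log2 fold change was -0.02 (SE 0.058, 95% interval -0.15 to 0.11, edgeR adjusted *P* = 0.82). These CPM are well above the 10.3 CPM of the on arm in MEC1, although the tables were normalized separately and this difference was not tested. *CASK* had 643, 729 and 688 counts in JVM2-CTRL and 729, 547 and 574 in JVM2-2B17, at 68.2 ± 4.48 and 64.1 ± 2.33 CPM (SD, n = 3). Its arms overlapped as well, with a log2 fold change of -0.09 (SE 0.069, 95% interval -0.24 to 0.06, edgeR adjusted *P* = 0.36).

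*EMR1* had 161, 167 and 131 counts in JVM2-CTRL and 201, 150 and 131 in JVM2-2B17, at 15.1 ± 1.12 and 16.6 ± 1.71 CPM (SD, n = 3). With overlapping arms, its log2 fold change was 0.14 (SE 0.11, 95% interval -0.10 to 0.38, edgeR adjusted *P* = 0.39). The intervals of these 3 genes bound any change in JVM2 to well under that of MEC1, where the fitted log2 fold changes were -4.38 for *SHROOM3*, -3.54 for *CASK* and 3.47 for *EMR1*. A small change within those intervals was not detectable at this depth.

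**Figure D4:**
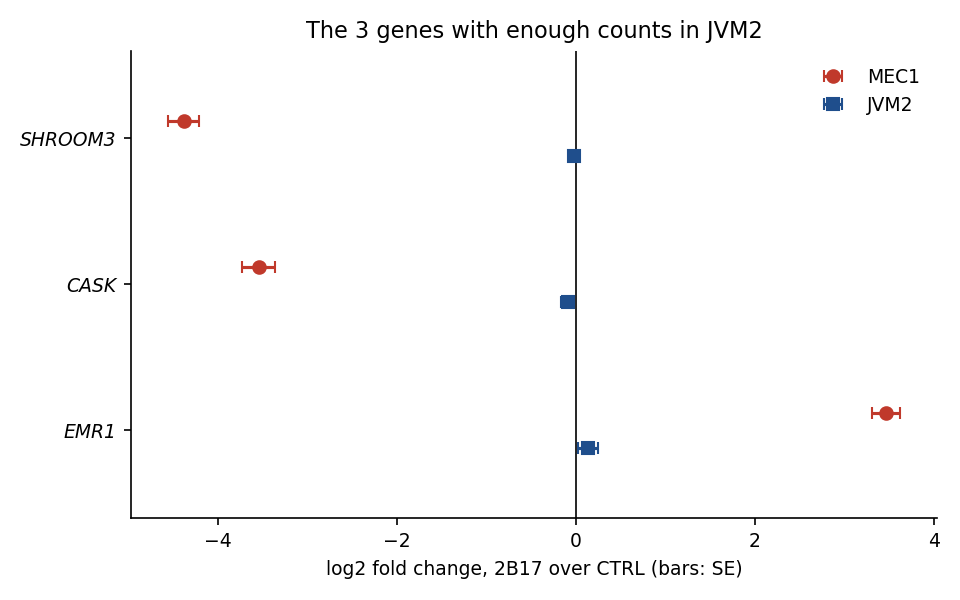
Log2 fold change of 2B17 over CTRL cells (horizontal axis) with its SE for the 3 genes with enough counts in JVM2, with MEC1 as circles and JVM2 as squares. The MEC1 values, which chose the genes, lie at -4.38, -3.54 and 3.47, and the JVM2 values at -0.02, -0.09 and 0.14.

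The second kind had almost no reads in either JVM2 arm. *TRAT1* and *KLRC1* are not listed in the JVM2 table, whose listed genes have at least 10 counts, so where the authors' table leaves out a gene for that reason it had at most 9 counts over the 6 libraries (0.152 CPM). *RORB* was listed with 2, 7 and 4 counts in JVM2-CTRL and 4, 0 and 2 in JVM2-2B17, which overlap and did not pass the filter. With no filter on low counts its log2 fold change was -1.0 and it was not called (edgeR adjusted *P* = 0.38). *TRAT1* and *KLRC1* cannot be compared between the JVM2 arms.

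*CTNND2* was of a kind of its own. It had 9, 16 and 17 counts in JVM2-CTRL and 0, 0 and 0 in JVM2-2B17, so the arms did not overlap and the direction was opposite to that in MEC1. Against a floor of 3 counts over the 3 libraries it was 13.3-fold lower in JVM2-2B17, a figure that leaves out the error of the control counts. It did not pass the filter and has no test in the fit used for the other genes. With no filter on low counts it was called lower (edgeR adjusted *P* = 0.00025). The same call came in the 4 fits without JVM2-CTRL replicate 1 or without any 1 of the JVM2-2B17 replicates. In those 4 fits it passed the filter only through the control libraries, where it was high, so these calls add no separate support. Without JVM2-CTRL replicate 2 or 3 it did not pass the filter.

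The 7 genes lie on 7 different chromosomes, so none had another of the group within 1 Mb. All 7 are protein coding, as are 63.9% of the 21798 MEC1 genes with an annotation. Their median span was 196 kb against 33.4 kb for protein-coding genes tested in MEC1, and 4 of 7 exceed 100 kb, against 19.2%. *CTNND2*, *CASK*, *SHROOM3* and *RORB* are the long ones, at 933, 409, 348 and 196 kb. *EMR1*, *TRAT1* and *KLRC1* are shorter, at 52.9, 32.2 and 12.4 kb. None of the 7 belonged by symbol to the zinc finger, ion channel, cadherin, semaphorin, solute carrier, homeobox or cancer-testis families, which hold 4.86% of the MEC1 genes.

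Neighbouring genes differed between the MEC1 arms by less than the member they surround, but the members were chosen for a large difference. The gap was small for *CXCL10* (-3.99) beside *SHROOM3* (-4.38), and in size for *CLECL1* (-3.23) beside *KLRC1* (3.28). Within 1 Mb of the 7 starts, 106 genes were tested in MEC1 and 52 were called (49.1%, against 41.7% of all genes tested), 21 of them higher in MEC1-2B17 and 31 lower, where 20% and 21.6% of all genes were. Their median log2 fold change was -0.01, beside 0.00 over all genes tested. Around *TRAT1* the 10 tested genes lay between -0.74 and 0.46, and *CTNND2* had no tested gene within 1 Mb.

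Near *RORB*, 4 of 5 tested neighbours fell along with it, by much less, and the median log2 fold change was -0.75. They lie 456 to 591 kb downstream of its start, with *OSTF1*, an osteoclast-stimulating factor, at -0.84 (SE 0.059, edgeR adjusted *P* = 1.1e-09). Upstream of *SHROOM3*, the interferon-inducible chemokine genes *CXCL10*, *CXCL11* and *CXCL9* fell with it, with starts at -394 to -428 kb. Their log2 fold changes were -3.99 (SE 0.23), -3.19 (SE 0.41) and -2.07 (SE 0.44). The last 2 were low in MEC1-CTRL as well, at mean CPM of 0.678 and 0.486, against 4.59 for *CXCL10*. Among all 15 genes tested there, 5 were called higher and 5 lower, the 3 chemokines counted with the latter.

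Around *KLRC1*, in the NK gene complex of chromosome 12, the called neighbours went mostly the other way, with 11 of 27 lower and 3 higher in MEC1-2B17. *CLECL1*, a C-type lectin-like gene of B cells and dendritic cells, fell by 3.23 on the log2 scale, and *CD69*, an early activation antigen of lymphocytes, by 0.73. *EMR1* had 46 tested neighbours, 12 higher and 5 lower, of which the complement gene *C3* rose the most (1.73, SE 0.19, edgeR adjusted *P* = 5.5e-07). Near *CASK*, the X-linked genes *DDX3X* and *USP9X* stood at -0.05 and -0.10 on the log2 scale, *USP9X* alone past the threshold (edgeR adjusted *P* = 0.046). *GPR82*, which lies inside *CASK* on the opposite strand, fell by 1.12 on the log2 scale on 80 and 34 summed counts, and the sources used here do not say whether counting used strand, so its reads and those of *CASK* cannot be told apart.

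**Figure D5:**
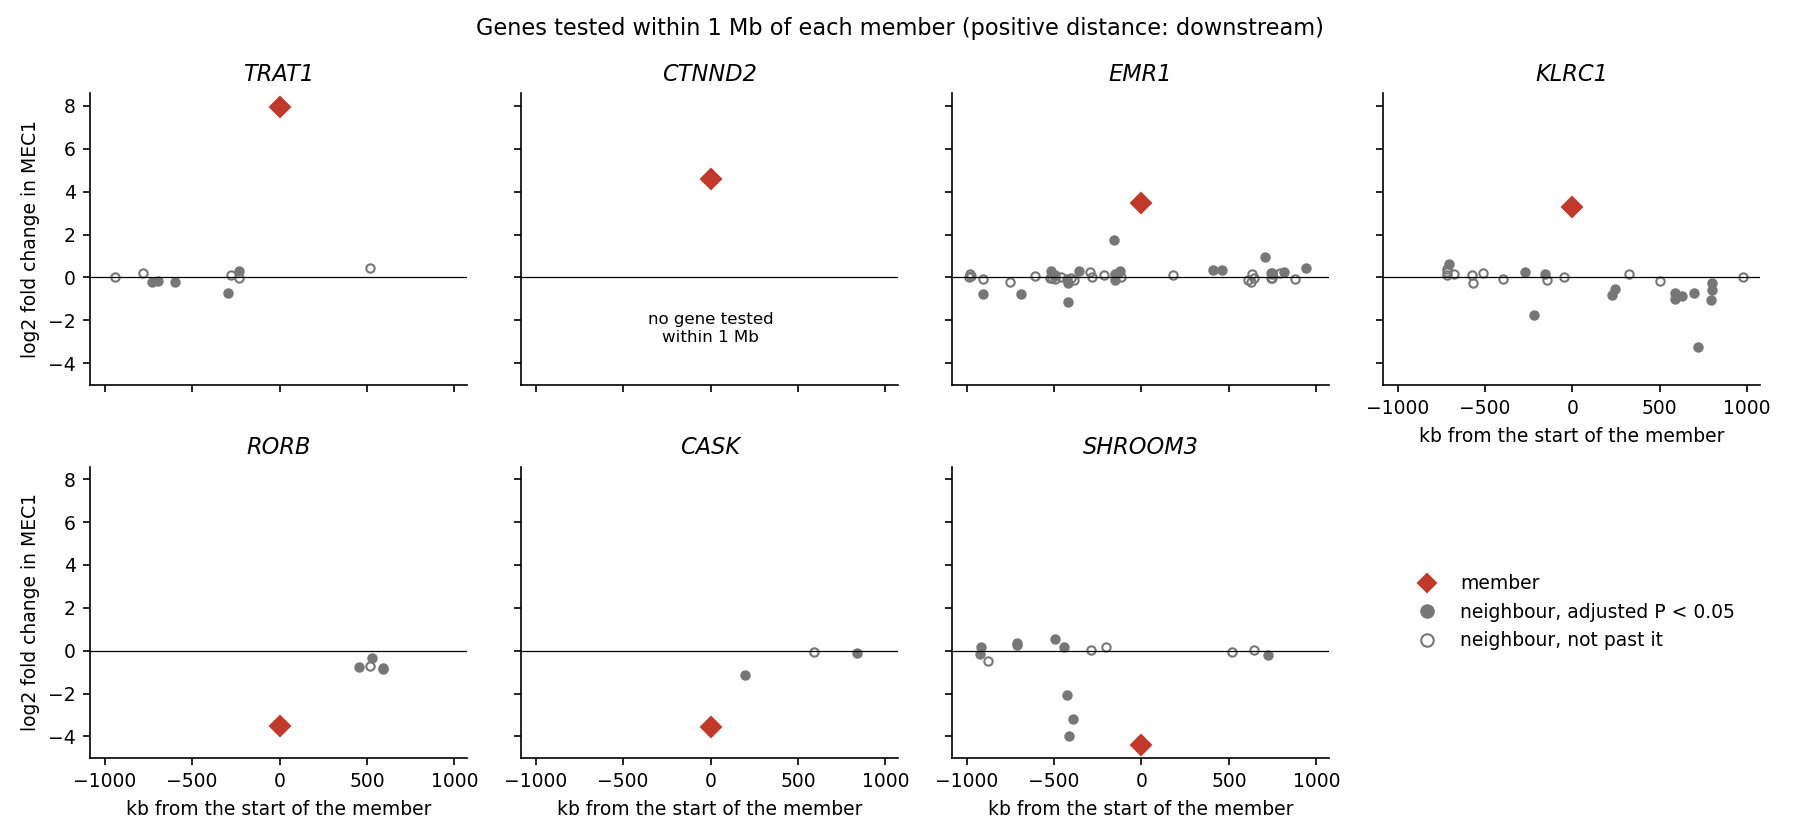
Log2 fold change in MEC1 (vertical axis) of each of the 106 genes tested within 1 Mb against the distance of its start from that of the member (horizontal axis, kb, downstream positive), with the member as a diamond and neighbours past the threshold filled. The highest neighbours of *TRAT1*, *EMR1* and *KLRC1* reach 0.46, 1.73 and 0.64, while *CXCL10* and *CXCL11* near *SHROOM3* reach -3.99 and -3.19.

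Close relatives and partners of the genes were listed by symbol after the members were known. Only some of them are named here, mostly with their MEC1 values, beside the 41.7% of all MEC1 genes that were called. Of those listed for *SHROOM3*, 0 of 3 tested in MEC1 were called, and in JVM2 1 was higher and 1 lower. Of the transmembrane adaptors related to *TRAT1*, 0 of 5 tested in MEC1 were higher and 2 were lower, *PAG1* at -1.23 and *LAX1* at -0.35 on the log2 scale. In JVM2, 2 of the 3 tested were higher and 1 lower, where 29.3% of all genes were called. *KLRD1*, which encodes the CD94 partner of NKG2A, fell by 0.83 and *HLA-E*, the ligand, by 0.28 on the log2 scale in MEC1, and *HLA-E* also fell in JVM2 (-0.16, SE 0.054, edgeR adjusted *P* = 0.046). Of the 2 relatives of *EMR1* tested in MEC1, its paralog *EMR2* rose by 0.92, and *CD97* at -0.11 did not pass the test. In JVM2 *CD97* fell (-0.27, SE 0.069, edgeR adjusted *P* = 0.0097). For the p120 family around *CTNND2* in MEC1, *PKP2*, a desmosome plakophilin, fell (-1.81) and *PKP4* rose (0.16), and *CTNND1* at -0.20 did not pass the test. In JVM2 *PKP4* fell instead (-0.38, SE 0.068, edgeR adjusted *P* = 0.0013).

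*RORA*, the nuclear receptor most akin to *RORB*, rose in MEC1, going from 33.1 ± 1.68 to 105 ± 1.26 CPM (SD, n = 3), that is, by 1.67 on the log2 scale (SE 0.042, edgeR adjusted *P* = 1.2e-15), opposite to *RORB*. In JVM2 it was 0.16 (SE 0.16, edgeR adjusted *P* = 0.52). Of the guanylate kinases and partners around *CASK*, 2 of 13 were higher and 1 lower, where 20% and 21.6% of all MEC1 genes were.

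Because several members are known from other cell types, the markers of those types were counted beside them. Of the T-cell markers, *CD3D*, *CD4* and *CD8B* were not listed and *CD3E* was at most 0.0816 CPM on average, while *ZAP70*, a kinase also found in leukemic B cells, rose by 2.58 and *CD247* by 1.22 on the log2 scale and *LCK* fell by 0.16. The summed T-cell list was 65.4 to 68.8 CPM in MEC1-CTRL and 68.5 to 73.0 in MEC1-2B17, most of it *LCK*. The NK list summed to 8.94 to 10.1 CPM in MEC1-2B17 against 23.7 to 26.0 in MEC1-CTRL, with *GNLY*, a cytolytic granule protein, at -1.99, *KLRD1* at -0.83 and *NCR1*, an activating receptor, at 1.75 on the log2 scale, *NKG7* not past the test and *NCAM1* not listed. The myeloid list was 4.79 to 5.39 against 2.38 to 2.94 CPM, with *ITGAM* at 1.58 and *CSF1R* at -0.71 on the log2 scale, both past the test, *MPO* not listed and *CD14* at 0.0792 CPM or less. The epithelial list was 45.8 to 48.8 CPM in MEC1-2B17 against 26.4 to 29.9, nearly all of it *CDH1*, and the fibroblast list was 2.52 to 3.56 against 1.89 to 2.44 CPM. The part of these markers in the results for *TRAT1*, *KLRC1* and *EMR1* was not tested, and in bulk RNA fewer cells with a gene on and less RNA per cell cannot be told apart.

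The machinery that keeps genes on or off showed small differences. The list holds factors that keep genes silent and others, such as *TET2*, that work against this. Its numbers of higher and lower genes therefore give no direction of silencing. In MEC1, 25 of 65 tested genes of DNA methylation, Polycomb and H3K9 methylation were called (38.5%, beside 41.7% of all genes), 10 higher and 15 lower. *PHF19*, a Polycomb partner, fell by 0.57, *TET2*, which oxidizes methylcytosine, fell by 0.52, and *CBX7*, a Polycomb reader, rose by 0.44 on the log2 scale, the 3 largest in MEC1. In JVM2, 20 of 65 were called (30.8%, beside 29.3% of all genes). This number was 11 without JVM2-CTRL replicate 1, 12 without either of the other controls, and 29 without JVM2-2B17 replicate 2. Over all genes the number called moved the same way, from 3821 to 2933, 2764 and 2687 without JVM2-CTRL replicate 1, 2 or 3. It was 4540 without JVM2-2B17 replicate 2. Called in both lines were 9 (13.8%, beside 15.8% of the 12243 genes tested in both), of which 5 had the same direction, namely *CBX7* higher and *EHMT1*, *EZH2*, *MBD1* and *UHRF1* lower in 2B17 cells, and 4 the opposite, namely *BMI1*, *CBX2*, *CBX5* and *TRIM28*. The 5 changed by at most 0.44 on the log2 scale in MEC1.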

How the data were processed

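The authors depleted ribosomal RNA, sequenced paired ends, trimmed with Trimmomatic, aligned to hg38 with TopHat2 2.0.14 and counted genes with HTSeq, per the labels. The strand setting and the annotation version are not given in the sources used here. The deposited raw counts, without normalization, are the only values used. The 12 columns of rounded normalized values that the authors deposited, which fit no other unit and were treated as a score, were not used, nor were the log2 fold changes and log2 mean CPM of the authors' own comparisons. The authors computed p-values and adjusted p-values with edgeR and DESeq2 for those comparisons, which were not used either.

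The members, the lists and the tests were chosen with earlier results of these data known, and relatives were listed after the members were seen. Every member could be named, with all libraries given for members with high on levels. Of other genes, those named are *UGT2B17*, neighbours, relatives, listed markers and chromatin genes called in both lines or among the 3 largest in MEC1.

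Each line was fitted alone with edgeR 4.0.16 in R 4.3.3 (TMM, filterByExpr with a minimum count of 10 and a total of 15, quasi-likelihood F-test, 2B17 against CTRL, 3 libraries an arm). *P*-values were adjusted by Benjamini-Hochberg over all genes tested in a line, 16581 in MEC1 and 13021 in JVM2, and called below 0.05. CPM used TMM library sizes. Library totals were 31762649 to 37744991 in MEC1 and 8809179 to 11231330 in JVM2. Ratios of summed counts have exact binomial 95% intervals and single counts Poisson ones, which, like the floor of 3 counts, cover counting error only. Positions came from GENCODE on GRCh38, and promoters from RefSeq on GRCh38.p14. On simulated data with 2-fold changes in 200 genes, 171 of 195 that passed the filter were called in MEC1 (87.7%) with 4 false calls, and 186 of 197 in JVM2 (94.4%) with 5. Alternatives were DESeq2 1.42.0, other scalings, other filters, other count limits, a replicate block and each library left out.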

Additional observations from a re-analysis of the deposited data

Results flagged for a closer look

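*CTNND2* moved in opposite directions in the 2 lines. In JVM2 its summed counts were 42 in JVM2-CTRL and 0 in JVM2-2B17, with every control library above every 2B17 library, whereas in MEC1 they were 40 in MEC1-CTRL and 895 in MEC1-2B17. The MEC1 difference chose the gene, and the difference between the lines was not tested. The level in JVM2-CTRL, 1.40 ± 0.46 CPM (SD, n = 3), was low, and the floor of 3 counts over JVM2-2B17 amounts to 0.104 CPM.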

How the results depend on the processing

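Membership was 7 with counts scaled to the median library, 0 at limits of 20 and 400 counts, 132 at limits of 80 and 100 (which held all 7), and 7 to 8 with 1 library left out. Leaving out MEC1-CTRL replicate 1 added *VWDE*, MEC1-CTRL replicate 3 *SCN3A*, and MEC1-2B17 replicate 1 *FUT7*. In JVM2, 1 member (*CTNND2*) was called with no filter on low counts and 0 to 1 with 1 library left out. In the latter fits *CTNND2* passed the filter only through its control libraries, where it was high. *SHROOM3* in JVM2 ranged from -0.06 to 0.02 on the log2 scale over these, turning to 0.02 without JVM2-2B17 replicate 2, and was not called in any setting. Chromatin genes called in JVM2 ranged from 11 (without JVM2-CTRL replicate 1), with 12 without either of the other control libraries, to 29 over the fits with 1 library left out. Over all genes the number called in the same fits ranged from 2687 to 4540, beside 3821 in the main fit. Each of these fits has fewer samples, the one with the most calls included, and the cause of the range was not tested. *UGT2B17* ranged from 0.89 to 0.99 in MEC1 and from 0.35 to 0.54 in JVM2, and was called throughout. In MEC1, *TRAT1* ranged from 7.45 to 8.75 with 1 library left out, since its off arm holds 3 counts. Deviations of same-numbered libraries had r from -0.074 to 0.0533 in MEC1 and from -0.00956 to 0.125 in JVM2. Differently numbered ones had r from -0.0838 to 0.121 in MEC1 and from -0.13 to 0.0723 in JVM2. With 3 libraries an arm these values cannot decide whether the numbers pair the libraries. Fitting the replicate block moved the genes called from 6909 to 6897 in MEC1 and from 3821 to 4236 in JVM2, and 0 members were called in JVM2. Of the alternatives, 85 of the 95 for the main results and 105 of the 117 for single genes were rated as the same. For a tested gene this means that direction and call held, and for other fold changes a move of less than the spread. A count was rated the same within a fixed ratio of its main value. For chromatin genes in JVM2, 29 in place of 20 was rated the same and 12 was not. Depth limits JVM2, where *TRAT1* and *KLRC1* could not be compared and *RORB* had 13 and 6 summed counts.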
